A study of Mus musculus with 6 samples.

Results

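Egr1, Egr2, Egr3, Nr4a1, Nr4a2, Nr4a3, Klf2, Klf4 and Klf6 are 9 transcription factor genes of 3 families that are known for rapid induction by extracellular signals. They were taken as the rows of the expression table that carry these gene symbols, 9 of its 38087 genes. The table holds poly-A RNA sequencing of mouse bone marrow-derived macrophages, which are cells grown out of marrow with macrophage colony-stimulating factor (M-CSF). The marrow came from male C57BL/6J mice, 8 to 10 weeks old in the protocol and 2 to 4 months old in the sample labels. Cells of both groups had 7 days in 10 ng/ml M-CSF and were then re-plated without it for 24 h. The treated group then received 10 nM resolvin D1 (RvD1), a lipid mediator made from docosahexaenoic acid, for 6 h, and the other group was untreated, with no vehicle described. Each group has 3 libraries. The labels do not say whether these are separate mice or cultures, so each p-value below rests on the spread among these 6 libraries, and that spread may be technical.

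EGR proteins are zinc-finger activators that are transcribed within minutes of growth factor, stress or Toll-like receptor signals, and the NAB proteins bind and restrain them. NR4A proteins are orphan nuclear receptors that act without a known physiological ligand and bind DNA alone or, for Nr4a1 and Nr4a2, beside an RXR partner. KLF proteins are zinc-finger factors that bind GC-rich and CACCC elements, and in macrophages Klf2 and Klf4 are known to restrain NF-kappaB signalling, with Klf4 also promoting an interleukin-4-type state. Messages of many such genes are short-lived, so a single time of 6 h shows their level then and nothing of an earlier peak.

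The values were read as log2 normalized reads from their range, as the headers say only normalized. The low values of the table give a rough estimate of 11.2 to 16.3 M reads in the RvD1 libraries and 9.05 to 14.3 M in the untreated libraries. The macrophage receptor gene Csf1r averaged 14.24 log2 normalized reads in both RvD1 and untreated libraries, and the lysozyme gene Lyz2 averaged 16.02 in RvD1 and 15.93 in untreated libraries. Other cells' genes were also read. The collagen gene Col1a1 averaged 14.09 in RvD1 and 14.21 in untreated libraries, near Csf1r. The summed antilog level of 7 stromal and endothelial markers was 36862 to 57961 normalized reads in RvD1 libraries and 40424 to 47560 in untreated libraries. The summed level of 10 macrophage markers was 107510 to 137437 in RvD1 and 103421 to 133856 in untreated libraries, and that of 8 neutrophil markers was 5387 to 14193 in RvD1 and 4174 to 14580 in untreated libraries. The neutrophil genes S100a8, S100a9, Camp, Ngp and Ltf rose from library 1 to library 3 in both groups. S100a9 had 10.65, 11.23 and 12.03 log2 normalized reads in RvD1 libraries, against 10.31, 10.99 and 12.21 in untreated libraries. Ly6g, Mpo and Elane did not keep that order in both groups. Whether equal numbers mark a shared preparation was not tested. The 7 lymphocyte markers summed to 57.8 to 151 normalized reads in RvD1 and 60.6 to 120 in untreated libraries, with Cd3e and Ms4a1 listed at 0 in every library and Cd4 averaging 6.61 in RvD1 and 6.27 in untreated libraries on the log2 scale.

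No gene of the 7 marker lists passed the limma adjusted p. At an unadjusted p under 0.05 the macrophage list had 1 higher and 1 lower, the neutrophil list and the stromal and endothelial list 1 higher each, and the other 4 lists none. Log2 fold changes were positive for 5 of 6 mast cell and basophil markers (median 0.48), 6 of 7 stromal and endothelial markers (0.35), 7 of 8 neutrophil markers (0.29) and 8 of 10 macrophage markers (0.08). They were positive for 2 of 6 dendritic cell markers, 1 of 2 lymphocyte markers and 0 of 5 erythroid and platelet markers tested. The median over all genes tested was 0.00. Markers of a single list are not independent observations. Some lay near the floor, such as the mast cell and basophil markers Fcer1a and Ms4a2, which averaged 0.62 and 0.56 log2 normalized reads over all libraries. The higher genes with an unadjusted p under 0.05 were the endotoxin co-receptor gene Cd14 at 0.57, the neutrophil surface gene Ly6g at 1.94 and the endothelial receptor gene Kdr at 0.75. Their limma adjusted p-values were 0.145, 0.226 and 0.229. The lower one was the macrophage marker gene Spi1 at -0.24, with a limma adjusted p of 0.196. Ly6g was near the floor, with 2.75, 3.56 and 3.28 log2 normalized reads in RvD1 libraries, against 0.10, 0.30 and 3.39 in untreated libraries. Cd14, Ly6g, Kdr and Spi1 all had overlapping groups. Between libraries of the same number, Cd14 and Kdr were higher with RvD1 each time and Spi1 lower each time. Ly6g was lower with RvD1 in number 3. The labels do not say whether equal numbers mark a pair. In bulk RNA, fewer cells of a type and less RNA per cell cannot be told apart, and the part of these other cells in the results was not tested.

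At 6 h none of the 9 genes passed the limma test across 18899 genes at an adjusted p of 0.05. Of all genes tested 1.12% passed, so none of 9 is close to that share. Klf6, Klf4 and Nr4a2 were higher in every RvD1 library than in any untreated library, with fold changes of 1.26, 1.24 and 1.47. These were 3 of 9 genes, against a background of 12.6% of all genes whose groups lay apart in this direction and 25.4% in either direction. The same 3 genes had an unadjusted limma p under 0.05, as did 19.9% of all genes in either direction, 10.3% upward and 9.65% downward, and none of the 9 had it in the lower direction. The other 6 genes had overlapping groups. The median log2 fold change was 0.10 over the 9 genes and 0.00 over all genes tested.

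Klf6, a zinc-finger activator also described as a tumour suppressor, was the most abundant of the 9. It lies on the plus strand of chromosome 13 at 5861482 to 5870394 (mm10). Klf6 had 12.02, 12.24 and 12.13 log2 normalized reads in RvD1 libraries 1, 2 and 3, against 11.78, 11.80 and 11.83 in untreated libraries 1, 2 and 3. The RvD1 libraries all lay above the untreated ones, and they were spread more widely among themselves. Klf6 thus had a log2 fold change of 0.33 with an SE of 0.06 and a 95% interval of 0.18 to 0.47, and the limma adjusted p was 0.0537. Without RvD1 replicate 1 the log2 fold change was 0.38 and the limma adjusted p 0.0352, while genes passing over the whole table went from 211 to 451. Klf6 did not pass when any other single library was left out. Its log2 fold change lay between 0.28 and 0.38 when 1 library was left out.

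Klf4, a factor that can reprogram cells to pluripotency together with Oct4, Sox2 and Myc, had the smallest residual SD of the 9 over both groups, 0.04 on the log2 scale, although Klf6 was narrower in untreated libraries (0.03). It lies on the minus strand of chromosome 4 at 55527143 to 55532466. Klf4 had 8.29, 8.23 and 8.25 log2 normalized reads in RvD1 libraries 1, 2 and 3, against 7.93, 8.00 and 7.90 in the untreated libraries. The gap between the groups was wider than the spread inside either, with an SD of 0.03 in RvD1 and 0.05 in untreated libraries. For Klf4 the log2 fold change was 0.31 with an SE of 0.07 and an interval of 0.15 to 0.47, and the limma adjusted p was 0.0744.

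Klf2, which in endothelium responds to laminar flow and in lymphocytes and monocytes keeps cells quiescent, was on the other side of 0. It lies on the plus strand of chromosome 8 at 72319033 to 72321656. Klf2 had 7.43, 7.01 and 7.40 log2 normalized reads in RvD1 libraries 1, 2 and 3, against 7.77, 7.74 and 7.34 in the untreated libraries. RvD1 library 2 was the lowest of the 6, and untreated library 3 lay among the RvD1 values, so the groups overlapped. The log2 fold change of Klf2 was -0.34 with an SE of 0.15 and an interval of -0.69 to 0.01, and the limma adjusted p was 0.266. Without RvD1 replicate 2 the log2 fold change was -0.20.

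**Figure D1:**
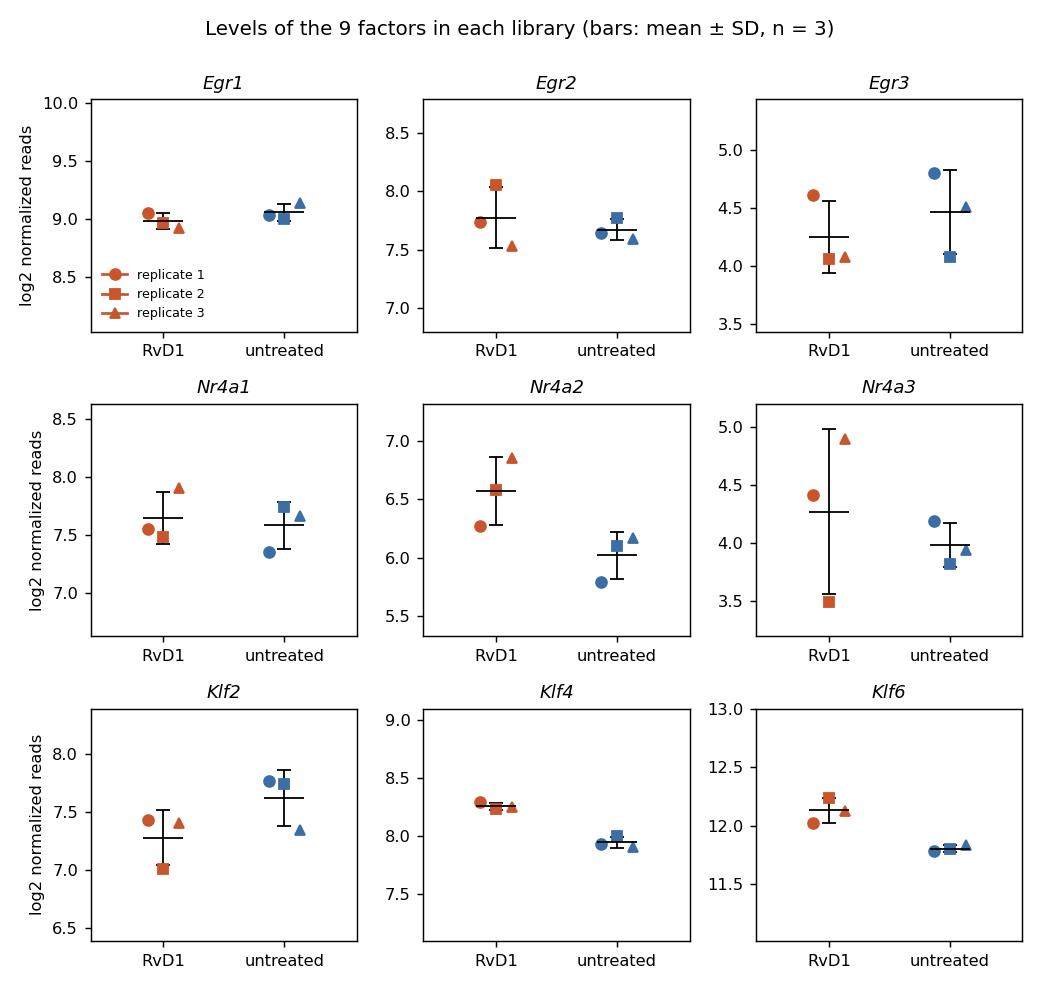
Levels of the 9 genes in log2 normalized reads in each library, with RvD1 left of untreated in each panel. Klf6, Klf4 and Nr4a2 had no overlap between groups, and the other 6 genes did.

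Nr4a2, known as Nurr1 and needed for midbrain dopamine neurons, had the largest fold change of the 9. It lies on the minus strand of chromosome 2 at 57106830 to 57124003. Nr4a2 had 6.27, 6.58 and 6.86 log2 normalized reads in RvD1 libraries 1, 2 and 3, against 5.79, 6.10 and 6.17 in the untreated libraries. The lowest RvD1 library was just above the highest untreated library. Nr4a2 had a log2 fold change of 0.55 with an SE of 0.18 and an interval of 0.14 to 0.96, a fold of 1.47 with an interval of 1.10 to 1.94. Its limma adjusted p was 0.145.

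Nr4a1, known as Nur77 and needed in mice for Ly6C-low monocytes, showed no separation. It lies on the plus strand of chromosome 15 at 101254269 to 101274795. Nr4a1 had 7.55, 7.48 and 7.90 log2 normalized reads in RvD1 libraries 1, 2 and 3, against 7.35, 7.74 and 7.66 in the untreated libraries. The groups overlapped, with the highest value in RvD1 library 3 and the lowest in untreated library 1. For Nr4a1 this gave a log2 fold change of 0.06 with an interval of -0.26 to 0.39, and the limma adjusted p was 0.846. It was -0.07 without RvD1 replicate 3 and -0.05 without untreated replicate 1.

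Nr4a3, known as Nor1, was the lowest of the 9 per length. Its residual SD over both groups, 0.52 on the log2 scale, was the largest of the 9, with 0.71 in RvD1 and 0.19 in untreated libraries. It lies on the plus strand of chromosome 4 at 48045153 to 48086447. Nr4a3 had 4.42, 3.50 and 4.90 log2 normalized reads in RvD1 libraries 1, 2 and 3, against 4.19, 3.82 and 3.94 in the untreated libraries. Both the highest and the lowest of the 6 values were in RvD1 libraries. These levels stand for an estimated 9.96 to 30.0 reads per library. The log2 fold change of Nr4a3 was 0.29 with an SE of 0.35 and an interval of -0.52 to 1.09, and the limma adjusted p was 0.704. It was -0.03 without RvD1 replicate 3 and 0.67 without RvD1 replicate 2.

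Egr1, the most widely used marker of immediate early transcription, was close between the groups. Egr1 had 9.06, 8.96 and 8.92 log2 normalized reads in RvD1 libraries 1, 2 and 3, against 9.03, 8.9995 and 9.14 in the untreated libraries. The groups overlapped over a narrow range. Its log2 fold change was -0.08 with an SE of 0.07 and a limma adjusted p of 0.582. Its 95% interval on the linear scale was 0.852 to 1.06, which holds for the deposited values only. On the log2 scale that interval was -0.23 to 0.08, and -0.13 to 0.17 after the length and GC correction described below. The uncorrected log2 fold change lay between -0.11 and -0.04 when 1 library was left out, the smaller size being without untreated replicate 3.

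Egr2, which is known for myelination by Schwann cells and for T cell anergy, lies on the plus strand of chromosome 10 at 67535475 to 67542188. Egr2 had 7.74, 8.05 and 7.53 log2 normalized reads in RvD1 libraries 1, 2 and 3, against 7.64, 7.77 and 7.59 in the untreated libraries. RvD1 library 2 was the highest of the 6 and RvD1 library 3 the lowest. For Egr2 this gave a log2 fold change of 0.10 with an interval of -0.20 to 0.40, and the limma adjusted p was 0.717. It was -0.04 without RvD1 replicate 2 and 0.22 without RvD1 replicate 3.

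Egr3, which acts with Egr2 in T cell tolerance, lies on the plus strand of chromosome 14 at 70077203 to 70082614. Egr3 had 4.61, 4.07 and 4.08 log2 normalized reads in RvD1 libraries 1, 2 and 3, against 4.81, 4.08 and 4.51 in the untreated libraries. Library 1 of each group held its highest value, and the groups overlapped. Egr3 had a log2 fold change of -0.21 with an interval of -0.82 to 0.40, a limma adjusted p of 0.710 and an estimated 14.8 to 32.0 reads per library. It was -0.04 without untreated replicate 1 and -0.40 without untreated replicate 2.

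Egr4 and the related zinc-finger gene Wt1 were listed at 0 in every library. Nab2, an EGR co-repressor that EGR proteins themselves induce, had 10.13, 9.95 and 10.21 log2 normalized reads in RvD1 libraries, against 10.27, 10.22 and 10.08 in untreated libraries. Its log2 fold change was -0.09 and its limma adjusted p 0.568. The other co-repressor, Nab1, had a log2 fold change of 0.05 with a limma adjusted p of 0.714. Both co-repressors had overlapping groups.

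**Figure D2:**
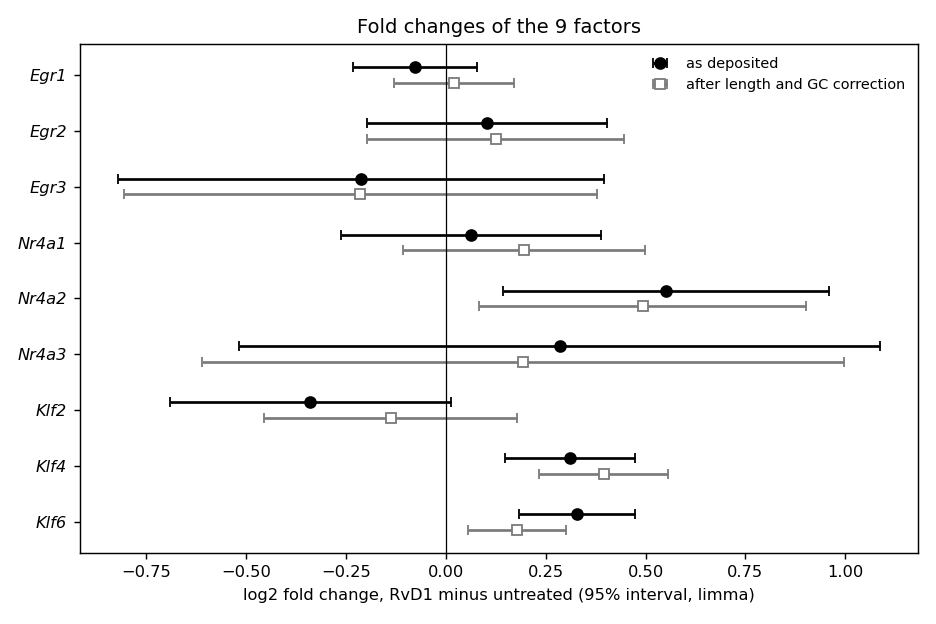
Log2 fold changes of the 9 genes, RvD1 minus untreated, with 95% intervals, from the deposited values and from values corrected for the length and GC of the transcripts. Intervals of Nr4a2, Klf4 and Klf6 lay above 0 in both. The values of Klf6, Klf2, Nr4a2, Nr4a3 and Egr1 were nearer 0 after the correction, and those of Klf4, Nr4a1, Egr2 and Egr3 further from 0.

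Fold changes in these libraries moved with the GC content of the transcripts, with a Pearson r of -0.512 across genes, which are not independent replicates, and the 9 genes are spread over that range. Klf6 transcripts hold 42.4% GC and Klf2 transcripts 61.6%, where the median of 13024 genes with a mean of at least 5 log2 normalized reads was 49.6%. After removing each library's smooth trend with transcript length and GC, the log2 fold change of Klf6 was 0.18 with an interval of 0.05 to 0.30 and a limma adjusted p of 0.252. Klf2 came to -0.14 with an interval of -0.45 to 0.18. Klf4, at 54.6% GC, had 0.40 with an interval of 0.23 to 0.56 and a limma adjusted p of 0.0890. Nr4a2, at 47.9% GC, had 0.49 with an interval of 0.08 to 0.90 and a limma adjusted p of 0.331. Nr4a1 and Egr1, at 57.0% and 57.3% GC, came to 0.20 and 0.02, both with intervals that include 0. The log2 fold change of Egr1 was on the other side of 0 from its uncorrected value of -0.08.

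**Figure D3:**
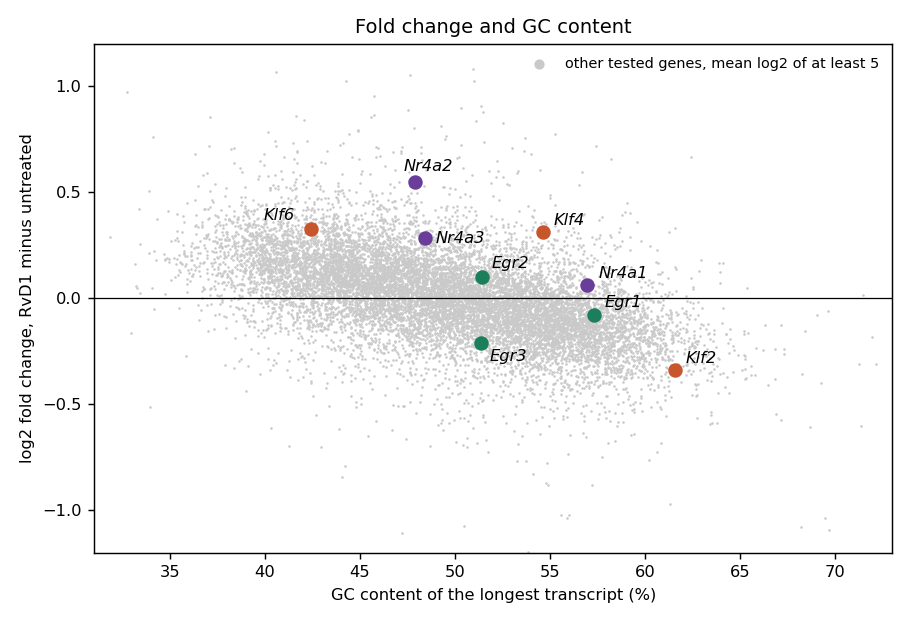
Log2 fold change, RvD1 minus untreated, against GC percent of the longest transcript for genes with a mean of at least 5 log2 normalized reads (13007 drawn, 17 outside the axes), with the 9 named genes marked. Klf6 stands at 42.4% GC and Klf2 at 61.6%, on either side of the median gene at 49.6%.

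The promoters of the 3 genes whose groups lay apart, and of Klf2 as the KLF gene on the other side of 0, are printed to show the sites for signal-responsive factors that lie in them. They are RefSeq sequences of the GRCm38.p6 build (mm10), 5′ to 3′ on the strand of the gene, covering bases 250 to 51 before the start. Capitals mark a cAMP response element core (TGACG), the EGR site variant GCGGGGGCG, or a MEF2 site in its strict form (CTA, then 4 letters of A or T, then TAG), on either strand. Looser forms of the MEF2 site were not searched and are not capitalized.
Nr4a2 chr2:57124054-57124253 (- strand): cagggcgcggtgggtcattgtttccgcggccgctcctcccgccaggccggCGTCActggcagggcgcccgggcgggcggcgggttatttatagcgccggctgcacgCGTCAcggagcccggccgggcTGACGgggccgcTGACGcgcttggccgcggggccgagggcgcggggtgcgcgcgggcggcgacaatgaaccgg
Klf4 chr4:55532526-55532725 (- strand): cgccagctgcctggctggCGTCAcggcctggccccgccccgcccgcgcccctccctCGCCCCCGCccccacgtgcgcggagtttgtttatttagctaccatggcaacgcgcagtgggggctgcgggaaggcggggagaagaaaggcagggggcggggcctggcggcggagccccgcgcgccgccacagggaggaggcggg
Klf2 chr8:72318812-72319011 (+ strand): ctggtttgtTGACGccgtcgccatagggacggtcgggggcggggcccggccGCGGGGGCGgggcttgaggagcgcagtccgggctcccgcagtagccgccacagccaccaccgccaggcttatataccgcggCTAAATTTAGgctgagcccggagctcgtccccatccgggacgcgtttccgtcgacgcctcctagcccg
Klf6 chr13:5861239-5861438 (+ strand): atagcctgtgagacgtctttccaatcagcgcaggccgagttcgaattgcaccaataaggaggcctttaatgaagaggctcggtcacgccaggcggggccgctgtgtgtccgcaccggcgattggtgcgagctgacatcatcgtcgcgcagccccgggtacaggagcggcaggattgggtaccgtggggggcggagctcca

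The Nr4a2 stretch holds 4 matches of TGACG, the core that CREB proteins bind, while the Klf4 and Klf2 stretches hold 1 each and the Klf6 stretch none. At least 1 match of TGACG occurred in 20.8% of 32851 mouse promoter windows of 300 bases, which is no background for a count of 4. Windows of Nr4a1 and Nr4a3 also held 4 matches each, so the 3 NR4A genes had the same count beside fold changes of 1.47 for Nr4a2, 1.05 for Nr4a1 and 1.22 for Nr4a3. Some Egr2 windows, which overlap each other, held 2 matches each. Klf4, Klf2 and Nr4a1 each held 1 match of GCGGGGGCG, which 2.91% of all promoter windows hold and which can overlap the SP site GGGCGG. The strict MEF2 site matched in Klf2 is a motif that 0.557% of windows hold. A CArG box, bound by serum response factor, lay in 4 of the 5 overlapping or neighbouring Egr2 windows and in none of the other 6 genes with a window, against 1.63% of all windows. The full site TGACGTCA, which contains TGACG, was in none of the windows of these 7 genes. Neither were the EGR site GCGTGGGCG, the NR4A site AAAGGTCA or the KLF site GGGTGTGGC. The short runs CACCC and GGGCGG were searched too and are common, in 57.5% and 35.7% of all windows. A match is a run of letters and no evidence of binding.

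Per kilobase of the longest transcript the 9 genes spanned a wide range of levels. In RvD1 libraries the order of mean log2 levels per kb was Klf6 at 10.05, Egr1 at 6.81, Klf4 at 6.66, Klf2 at 6.39, Nr4a1 at 6.29, Egr2 at 6.21, Nr4a2 at 4.74, Egr3 at 2.28 and Nr4a3 at 1.76. In untreated libraries it was Klf6 at 9.72, Egr1 at 6.89, Klf2 at 6.73, Klf4 at 6.35, Nr4a1 at 6.23, Egr2 at 6.10, Nr4a2 at 4.18, Egr3 at 2.49 and Nr4a3 at 1.47. Klf6 stood far above the rest and Egr3 and Nr4a3 far below in both groups. Neighbours whose libraries overlapped were Klf2 and Nr4a1, Nr4a1 and Egr2, and Egr3 and Nr4a3 in RvD1 libraries. In untreated libraries they were Egr1 and Klf2, Klf4 and Nr4a1, and Nr4a1 and Egr2. Klf4 minus Klf2 per kb on the log2 scale was 0.15, 0.51 and 0.13 in RvD1 libraries, against -0.55, -0.46 and -0.15 in untreated libraries. Per kb, Klf4 was therefore the higher of the pair in each RvD1 library and Klf2 in each untreated library. Without division by length, Klf4 lay above Klf2 in every library of both groups. The change of order thus rests on the transcript lengths used, 3029 bases for Klf4 and 1847 for Klf2, and has no GC correction. The Klf4 minus Klf2 comparison was picked after its values were seen and has no test.

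Some of the 9 genes varied together over the 6 libraries, which share the treatment contrast and the scaling. Of 36 pairs, 2 had a Pearson r of at least 0.8, namely Klf4 with Klf6 at 0.867 and Nr4a2 with Klf6 at 0.865. With the group means taken out, these came to -0.591 and 0.543, so the Klf4 and Klf6 libraries did not vary together inside the groups. Klf2 and Klf6 had an r of -0.824, and -0.777 with the group means taken out. Nr4a1 and Nr4a2 had an r of 0.622, and 0.815 with the group means taken out. Egr2 and Nr4a3 ran against each other with an r of -0.766, and -0.956 with the group means taken out, as RvD1 library 2 was the highest of the 6 for Egr2 and the lowest for Nr4a3.

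The genes most like each of the 9 over the 6 libraries were sought among genes with a mean of at least 5 log2 normalized reads. Klf4 was nearest to Nf1, the neurofibromin gene, with an r of 0.998, and to the DNA methyltransferase gene Dnmt3a with 0.996. Nf1 itself rose, with a log2 fold change of 0.33 and a limma adjusted p of 0.0450. Klf6 was nearest to Rabgap1l and Ankrd12 with 0.996 each, and Ankrd12 rose with a log2 fold change of 0.68 and a limma adjusted p of 0.0331. The values of Nf1 and Ankrd12 are without the length and GC correction. Under that correction 29 genes passed over the whole table, against 211 without it. Nr4a2 was nearest to Cd47, the gene of a surface protein that restrains phagocytosis, with 0.997, and then to Zfp322a. Nr4a3 was nearest to Kbtbd6 with 0.996 and to the chemokine gene Ccl3 with 0.991. Egr2 was nearest to the growth factor gene Fgf2 at 0.976 and the polo-like kinase gene Plk2 at 0.975, which is another immediate early gene. Klf2 was nearest to Yaf2 and Myo7a, Nr4a1 to Armc7 and Cacna1d, Egr1 to Tspan9 and Brf1, and Egr3 to Nup37 and Cpsf3, with r between 0.969 and 0.995. Among some 11243 genes searched, 306 had an r of at least 0.95 with Klf6, 152 with Nr4a2 and 107 with Klf4, against 6 with Egr2 and 8 with Egr1. Klf6, Nr4a2 and Klf4 are the genes whose groups lay apart, as did those of 25.4% of all genes in either direction. Each nearest gene is the highest of many r over only 6 libraries and has no test, so it is no evidence of shared regulation.

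**Figure D4:**
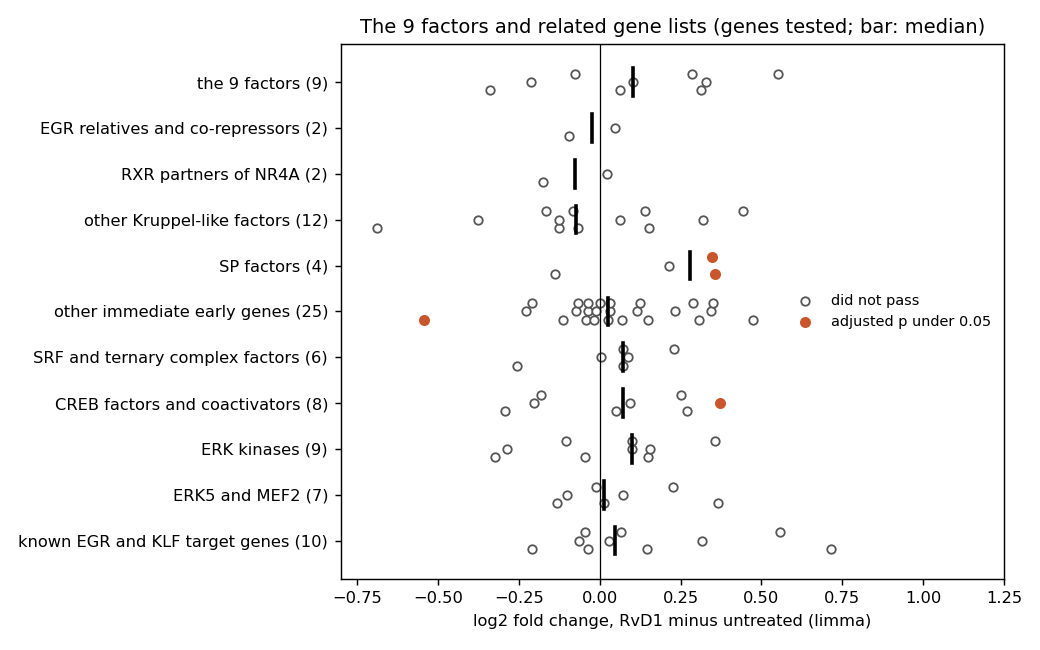
Log2 fold changes, RvD1 minus untreated, of the 9 genes and of related gene lists, 1 point per gene tested and a bar at each median. Filled points are the 4 listed genes with a limma adjusted p under 0.05, Sp1, Sp3, Creb1 and Plk3.

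Of 85 tested genes in 10 lists that drive, partner, share the induction of or answer to these factors, 4 passed the limma adjusted p, which is 4.71%, beside 1.12% of all genes tested. The lists were written with earlier results of these data known, so the difference between these shares is not evidence about the lists. With a minimum mean of 5 log2 normalized reads, 464 of 13176 genes passed over the whole table, and 6 in these lists. Of 25 other immediate early genes, 0 rose and 1 fell by the limma adjusted p, while 5 were higher and 2 lower with an unadjusted limma p under 0.05. The one that fell was Plk3, a stress-responsive polo-like kinase. Plk3 had 7.52, 7.48 and 7.58 log2 normalized reads in RvD1 libraries, against 7.89, 8.17 and 8.14 in untreated libraries. Its log2 fold change was -0.54 with an SE of 0.10 and a limma adjusted p of 0.0442. The list's median log2 fold change was 0.03. Plk3 did not pass when any 1 of the 6 libraries was left out.

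Among the kinases and factors that act upstream, 1 gene passed. Of 8 CREB factors and coactivators, Creb1 rose, with a log2 fold change of 0.37, an SE of 0.06 and a limma adjusted p of 0.0387. Creb1 had 9.92, 9.97 and 9.83 log2 normalized reads in RvD1 libraries, against 9.59, 9.54 and 9.48 in untreated libraries. None of the 6 serum response factor and ternary complex factor genes, 9 ERK pathway genes and 7 tested ERK5 and MEF2 genes passed the limma adjusted p, while by an unadjusted p under 0.05 there were 1, 2 and 2 higher and 1, 2 and 0 lower. The smallest p in each belonged to Srf at a log2 fold change of -0.26 and an adjusted p of 0.0734, Braf at 0.36 and 0.0539, and Map3k2 at 0.37 and 0.0723, all by limma. After the length and GC correction Srf, Braf and Map3k2 had -0.048, 0.13 and 0.075, with limma adjusted p-values of 0.792, 0.443 and 0.744.

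Among relatives and partners, 2 SP genes passed. Of 4 SP factors, which share GC-rich sites with the KLF proteins, Sp3 and Sp1 rose with log2 fold changes of 0.36 and 0.35 and limma adjusted p-values of 0.0337 and 0.0387. Sp3 had 10.43, 10.52 and 10.51 log2 normalized reads in RvD1 libraries, against 10.12, 10.10 and 10.16 in untreated libraries. Of 12 other Kruppel-like factor genes tested, 0 passed by limma, while an unadjusted p under 0.05 held for 1 higher and 3 lower genes, and Klf14 and Klf17 were listed at 0 in every library. Klf16 had the smallest p of them, with a log2 fold change of -0.38 and a limma adjusted p of 0.0778, and after the length and GC correction -0.20 and 0.383. Of the RXR partners of NR4A, Rxrb had a log2 fold change of -0.17 with a limma adjusted p of 0.213, and after that correction 0.011 and 0.970. Rxrg was listed at 0.

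Sp1, Sp3 and Creb1 transcripts hold 43.6%, 40.1% and 39.6% GC, and Plk3 transcripts 58.8%. After the length and GC correction their log2 fold changes were 0.15, 0.17, 0.11 and -0.38, and none of the 4 passed, with limma adjusted p-values of 0.298, 0.237, 0.451 and 0.168. Sp1, Sp3 and Creb1 passed without RvD1 replicate 1, and did not when any other single library was left out.

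Of 10 genes known as targets of EGR or KLF factors, none passed the limma adjusted p, while an unadjusted p under 0.05 held for 1 higher and 1 lower gene. Their median log2 fold change was 0.05. S1pr1, a sphingosine 1-phosphate receptor gene that Klf2 activates in T cells, had the smallest p. S1pr1 had 11.19, 11.36 and 11.42 log2 normalized reads in RvD1 libraries, against 10.93, 10.99 and 11.10 in untreated libraries. Its log2 fold change was 0.32 and its limma adjusted p 0.0759.

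**Figure D5:**
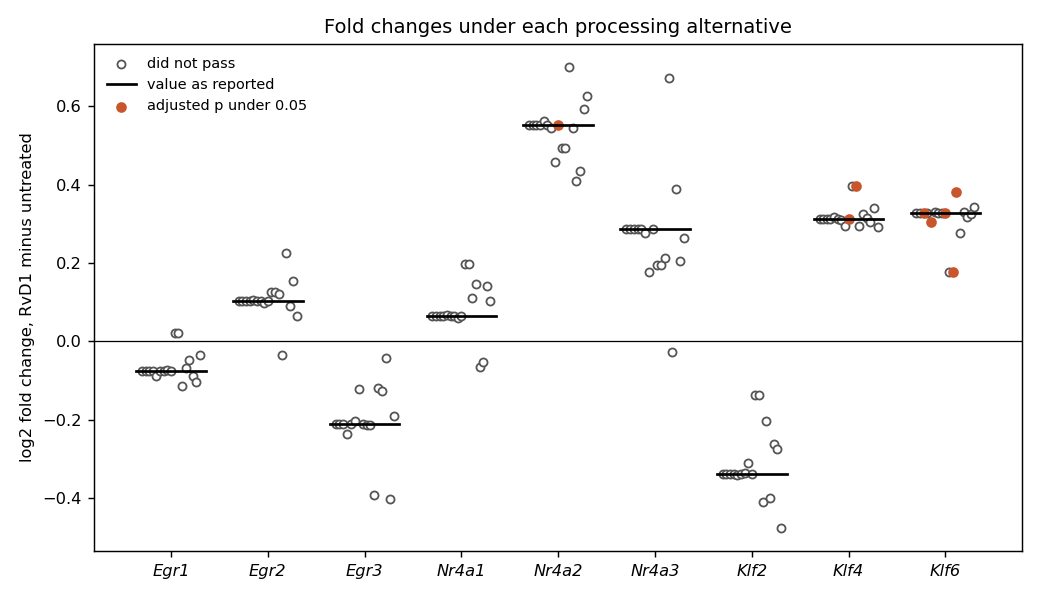
Log2 fold change, RvD1 minus untreated, of each of the 9 genes under 16 processing alternatives, filled where the limma adjusted p was under 0.05, with a bar at the value given above. Nr4a2, Klf4 and Klf6 stayed above 0 and Klf2 and Egr3 below 0 in all that gave a value, while Egr1, Egr2, Nr4a1 and Nr4a3 lay on both sides.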

How the data were processed

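Poly-A RNA was sequenced from 3 RvD1 and 3 untreated libraries (TruSeq, not strand-marking). The submitters' processing notes name TopHat2 2.0.7 and mm10. How reads were counted, against which annotation, and how they were normalized is not given in the sources used here. Deposited values are log2 normalized reads with decimal commas, per the file headers and the values (0 to 17.4). Each of the 6 value columns matched 1 sample, with 0 unmapped. Whole reads could not be recovered, since only 40.1 to 51.4% of low values lay within 0.02 of a whole multiple of 1 read. Depth is therefore an estimate.

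The values were fitted with limma 3.58.1 in R 4.3.3 (moderated, variance trend, two-sided), with genes above 0 in at least 3 of 6 libraries and Benjamini-Hochberg adjustment over all of them. The residual degrees of freedom were 4 and the prior 4.62. The fit was tested on simulated data. Fold changes are on the deposited log2 scale, whose pseudocount, if any, is not given. Alternatives changed the filter, trend, scaling, pseudocount (1 and 16), replicate block, each library, and a natural-spline correction of each library for transcript length and GC content (5 degrees of freedom each). Transcript lengths, GC and positions came from GENCODE M21, which holds 36308 of the IDs (95.3%). None of the 9 genes overlaps another annotated gene. RefSeq promoter windows were found for 7 of the 9 genes.

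The genes and lists were chosen with earlier results of these data known. Named beside the 9 genes were list genes that passed, or otherwise the list's smallest p, the 2 nearest genes of each factor by Pearson r, and Egr4, Nab1 and Nab2. This rule covers the pathway lists. The cell type markers named singly were chosen after their values were seen. The lists and cell type markers were written out by hand.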

Additional observations from a re-analysis of the deposited data

How the results depend on the processing

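Over the 16 alternatives the log2 fold change of Klf4 lay between 0.29 and 0.40, of Klf6 between 0.18 and 0.38, of Nr4a2 between 0.41 and 0.70 and of Klf2 between -0.48 and -0.14. Low reads limit Egr3 and Nr4a3, which a minimum mean of 5 removed. Egr1 came to 0.020 under the length and GC correction with and without the replicate block, as did Rxrb to 0.011, Nab1 to -0.029 and Nab2 to 0.079. Leaving out 1 library gave ranges of -0.036 to 0.22 for Egr2, -0.066 to 0.15 for Nr4a1 and -0.028 to 0.67 for Nr4a3. The log2 fold change of Nr4a1 was -0.053 without untreated replicate 1.

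Of the 9 genes, 1 (Klf6) passed with a minimum mean of 5, with quantile normalization and without RvD1 replicate 1. With 1 library left out, 0 to 1 passed. With the replicate block 3 passed (Klf6, Klf4 and Nr4a2, limma adjusted p 0.00824, 0.0370 and 0.0338), and 2 with that block plus the GC and length correction. Deviations from the group means had correlations of 0.301, -0.08 and 0.417 between same-numbered libraries of the 2 groups. Between libraries numbered 1 and 3 they were -0.383 and -0.393, and between the other unlike numbers -0.028 to 0.088. The labels do not say whether equal numbers mark a pair, so the values given above are from the fit without the block. Whether the libraries are paired was not tested.

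All genes past the test numbered 211, against 12 with no filter on low values, 464 with a minimum mean of 5, 1 with no variance trend, 1896 with the replicate block, 29 with the length and GC correction, 772 with both, and 0 to 451 with 1 library left out. The related lists' 4 calls became 0 with no filter on low values, with no variance trend and with the length and GC correction, 20 with the replicate block, 14 with both, and 0 to 8 with 1 library left out. The causes of these moves were not tested.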
